A study of Mus musculus with 12 samples.

Results

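The 9 genes described here carry the signal of bone morphogenetic proteins (BMPs) from the secreted ligand to its target genes in mouse embryonic stem cells (ESCs). They were taken by symbol from the 50978 genes of the deposited expression table and are the ligand gene *Bmp4*, the receptor genes *Bmpr1a* and *Bmpr2*, the SMAD genes *Smad1*, *Smad5* and *Smad6* and the target genes *Id1*, *Id2* and *Id3*. Polyadenylated RNA was sequenced from 3 lines of E14 mouse ESCs grown in medium with 15% serum and LIF, with 2 libraries per line by the labels, fewer than the paper's methods give. Parental ESCs carried no insertion. ESC + H/F-PRAMEL7-WT (the WT line) carried an HA/FLAG-tagged *Pramel7* sequence driven by the CAG promoter, which Cas9 had placed into *Rosa26*. ESC + H/F-PRAMEL7-ΔN (the ΔN line) carried the same insertion without the N-terminal part of the protein, 50 amino acids by the sample labels. The study's own text gives a shorter deletion. PRAMEL7 is a protein of the leucine-rich repeat family that recruits targets to a ubiquitin ligase containing Cullin 2. Both derived lines had been grown from single cells after puromycin selection, so that the inserted sequence and the clone cannot be told apart in any comparison with parental ESCs. The 2 libraries of a line came from separate dishes of that line, so p-values measure the spread between dishes.

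BMP ligands bind a complex of type I and type II serine/threonine kinase receptors. The activated type I receptor phosphorylates SMAD1, SMAD5 and SMAD9, which enter the nucleus with SMAD4 and switch on target genes. Among the best known targets are the inhibitory SMAD genes, whose products dampen the signal, and the *Id* genes, whose products bind E proteins and block the basic helix-loop-helix factors that drive differentiation. In mouse ESCs, BMP and the ID proteins are known for holding back neural differentiation while LIF holds back other fates, and serum in the medium is a source of BMP activity.

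The promoter windows of the 4 genes with the largest differences between lines are shown because SMAD proteins reach their targets through short DNA motifs near gene starts. Each window covers 250 bases before and 10 bases after the RefSeq start (GRCm38.p6), written 5′ to 3′ along the gene. The capitals mark matches on either strand to GGCGCC, a motif of BMP-activated SMADs, to GTCT, the short SMAD box (AGAC on the other strand), and to the palindrome GTCTAGAC, which contains 1 SMAD box on each strand. The windows lie at chr9:64022050-64022309 (minus strand) for *Smad6*, chr12:25096083-25096342 (minus) for *Id2*, chr4:136143572-136143831 (plus) for *Id3* and chr14:46390660-46390919 (minus) for *Bmp4*.
Smad6: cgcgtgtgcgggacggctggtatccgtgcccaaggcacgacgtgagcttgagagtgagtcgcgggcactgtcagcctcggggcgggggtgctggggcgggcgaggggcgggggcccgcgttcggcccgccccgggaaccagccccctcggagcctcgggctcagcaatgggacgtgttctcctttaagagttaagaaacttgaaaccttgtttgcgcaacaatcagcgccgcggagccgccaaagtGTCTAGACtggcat
Id2: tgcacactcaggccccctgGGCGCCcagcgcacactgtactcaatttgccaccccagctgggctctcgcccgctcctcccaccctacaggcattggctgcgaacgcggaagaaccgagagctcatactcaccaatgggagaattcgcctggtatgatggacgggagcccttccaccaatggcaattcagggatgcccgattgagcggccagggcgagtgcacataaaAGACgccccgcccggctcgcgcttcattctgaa
Id3: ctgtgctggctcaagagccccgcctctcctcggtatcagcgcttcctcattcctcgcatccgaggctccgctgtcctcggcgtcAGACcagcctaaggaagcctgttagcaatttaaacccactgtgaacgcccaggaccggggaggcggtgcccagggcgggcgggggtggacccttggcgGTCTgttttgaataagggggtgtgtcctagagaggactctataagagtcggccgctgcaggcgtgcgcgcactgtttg
Bmp4: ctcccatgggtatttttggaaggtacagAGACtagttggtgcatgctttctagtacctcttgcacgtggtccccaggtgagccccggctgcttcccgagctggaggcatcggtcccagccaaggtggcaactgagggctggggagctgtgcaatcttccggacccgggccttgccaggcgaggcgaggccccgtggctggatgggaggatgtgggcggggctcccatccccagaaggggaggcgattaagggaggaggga
The *Smad6* window held 1 GTCTAGAC palindrome that began 4 bases upstream of the start and spanned it. Of 32851 windows of the same length, 58 (0.177%) held that palindrome. The *Id2* window held 1 GGCGCC, 231 bases upstream, as did 9.96% of all windows, and no GGCGCC was present in the windows of *Smad6*, *Id3* and *Bmp4*. Each of these 4 windows held at least 1 GTCT, a property shared by 84% of all windows. RefSeq windows were found for 8 of the 9 genes, all but *Id1*. Among the genes not shown, GGCGCC was present in the windows of *Bmpr1a* and *Bmpr2* and in a window of *Smad5*, and absent in that of *Smad1*.

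*Pramel7* itself had 0.258 and 0.217 CPM in parental ESCs, 51.2 and 46.2 in the WT line and 397.7 and 430.9 in the ΔN line. Both derived lines therefore stood apart from parental ESCs at this gene, and the ratio of the means was 8.50 for the ΔN line over the WT line. CPM here are reads on genes scaled to a common library size, converted from the deposited RPKM with the scaling of the authors kept, and the libraries held 18254246 to 19855031 reads on genes. Fold changes are on the scale of log2(CPM + 1), which understates changes of genes near 1 CPM. A gene was called where the P value of limma, adjusted with Benjamini-Hochberg over 12914 genes, was under 0.05, where a gene was tested if 2 or more libraries exceeded 1 CPM. All 9 genes passed that filter. The 2 parental libraries were the least alike, with a median absolute log2 difference over all tested genes of 0.188, against 0.101 in the WT line and 0.119 in the ΔN line. All 10 pluripotency markers, among them *Pou5f1*, *Sox2* and *Nanog*, were above the filter as well, and their summed level was 6615 to 7055 CPM in parental ESCs, 6280 to 6619 in the WT line and 7528 to 7617 in the ΔN line.

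The comparison of each derived line with parental ESCs asks what the tagged protein, with or without its N-terminus, changes in these cells, and the comparison of the derived lines addresses the N-terminus. The derived lines are different clones, and their *Pramel7* levels differ, so that the N-terminus, the clone and the level of the inserted gene cannot be told apart there. In the WT line, *Smad6* and *Id1* rose and *Smad5* fell relative to parental ESCs, which is 3 of 9 genes against 25% of all genes tested. The ΔN line showed a rise of *Bmp4* and a fall of *Id2* and *Id3*, again 3 of 9 genes, against 19.9% of all genes. Between the derived lines, *Smad6*, *Id2* and *Id3* were higher in the WT line and *Bmp4* and *Smad5* were higher in the ΔN line, 5 of 9 genes against 20.4% of all genes. The median log2 fold change of the 9 genes was -0.032, -0.21 and 0.14 in these 3 comparisons, and that of all genes tested was -0.078, -0.057 and -0.017. Both comparisons with parental ESCs used the same 2 parental libraries.

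**Figure D1:**
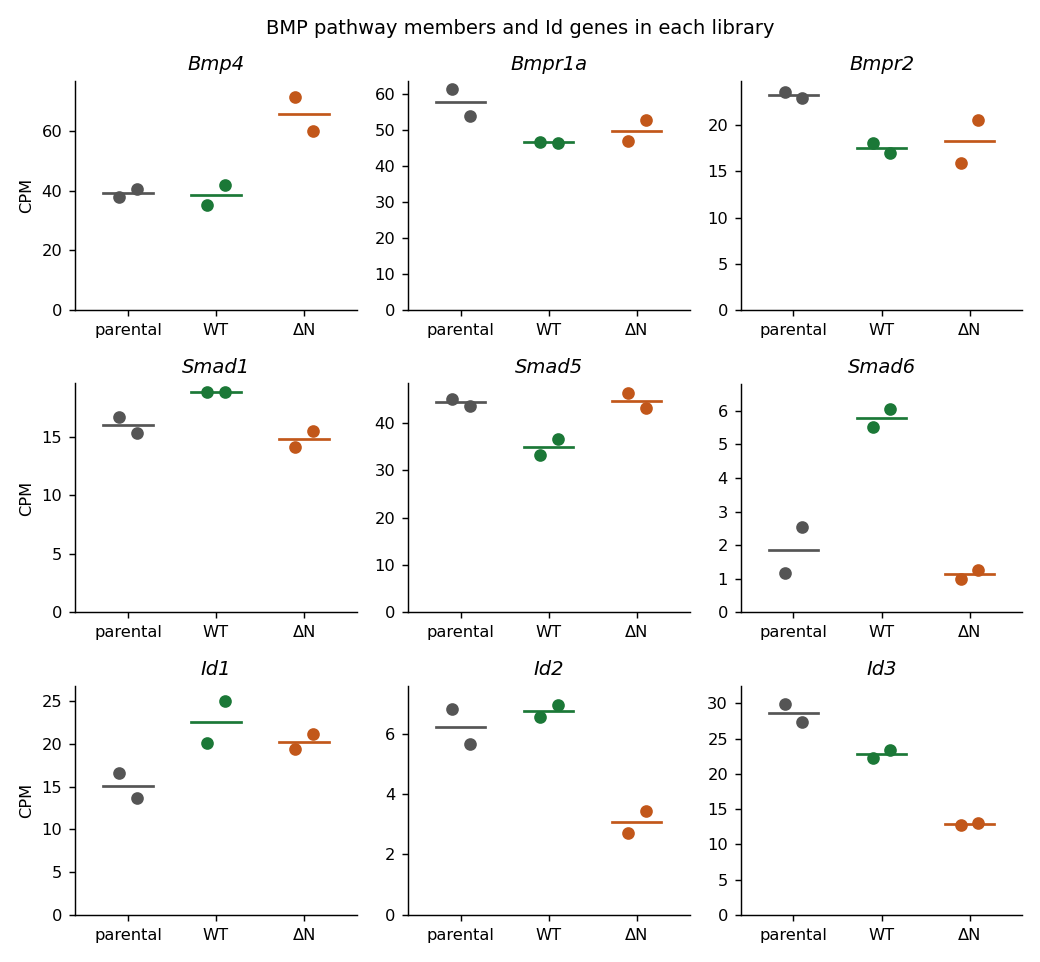
Each point is the level of a gene in 1 library in CPM (y axis from 0, scaled per gene) in parental ESCs, the WT line and the ΔN line, and the bar is the mean of the 2 libraries. *Smad6* stood at 5.52 and 6.06 CPM in the WT line against 1.00 to 2.55 in the other 4 libraries, and *Id3* at 12.8 and 13.0 CPM in the ΔN line against 22.2 to 29.9 in the other 4.

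*Bmp4*, a BMP ligand gene, lies on chromosome 14 (46383520 to 46390669, mm10). It had 38.0 and 40.5 CPM in parental ESCs, 35.1 and 41.8 in the WT line and 71.3 and 59.9 in the ΔN line. Both ΔN libraries were above the other 4, while the WT and parental libraries overlapped. The mean was 1.67-fold higher in the ΔN line than in parental ESCs (log2 fold change 0.72, 95% confidence interval 0.44 to 1.00, adjusted p = 0.00408 from limma) and 1.71-fold higher than in the WT line (log2 fold change of WT over ΔN -0.75, interval -1.03 to -0.48, adjusted p = 0.00319). In the WT line against parental ESCs the interval was -0.31 to 0.25 (adjusted p = 0.872). Leaving out the first ΔN library gave 0.60 against parental ESCs (adjusted p = 0.058) and leaving out the first WT library gave -0.63 between the derived lines (adjusted p = 0.0534), so that either call was lost with 1 library less.

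Of the 15 other BMP and GDF ligand genes listed, 4 passed the filter on low values. *Bmp2*, *Bmp5* and *Gdf2* were among those below it, at mean levels of 0.18 CPM or less in every line. Among the 4, *Gdf3*, a ligand gene of pluripotent cells and the only one of the 15 with a level per length above that of *Bmp4*, rose in the ΔN line (log2 fold change 0.53, adjusted p = 0.0203 from limma), and no other ligand gene was called in any comparison. In bulk RNA, a change in the share of cells of a type and a change in RNA per cell cannot be told apart. Some trophectoderm markers and the streak marker *Eomes* rose in the ΔN line, as *Bmp4* did. Of 7 trophectoderm markers, *Krt8*, *Krt18* and *Hand1* were called higher there than in parental ESCs, against 6.25% of all genes tested. The summed level of the list was 54.2 to 57.0 CPM in the ΔN line. It was 30.5 to 39.8 in parental ESCs and 30.6 to 31.0 in the WT line. *Krt18* was also called lower in the WT line than in parental ESCs (-0.49, adjusted p = 0.0317 from limma), where *Bmp4* was not called. *Krt7* was not called (2.06 and 4.28 CPM in parental ESCs, 2.11 and 2.06 in the ΔN line, log2 fold change -0.38, adjusted p = 0.329 from limma), and the defining markers *Cdx2*, *Elf5* and *Gata3* had means of 0.26 CPM or less in every line. Of 5 mesoderm and primitive streak markers, *Eomes* alone passed the filter on low values and rose in the ΔN line (4.90 and 4.28 CPM in parental ESCs, 9.13 and 10.6 in the ΔN line). Of the streak markers below the filter, *T* had 4 and 9 reads in parental ESCs and 0 in both ΔN libraries, and *Mixl1* had means of 0.65 and 0.59 CPM. The part of these markers in the level of *Bmp4*, and in the levels of *Id2*, *Id3* and *Smad7*, which changed in the same line, was not tested.

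Neither receptor gene among the 9 passed the threshold in any comparison. *Bmpr1a* (chromosome 14, 34410734 to 34503341) encodes a type I receptor. It had 61.3 and 54.0 CPM in parental ESCs, 46.6 and 46.5 in the WT line and 46.9 and 52.7 in the ΔN line. *Bmpr2* (chromosome 1, 59763400 to 59879014) encodes a type II receptor. It had 23.6 and 23.0 CPM in parental ESCs, 18.1 and 17.0 in the WT line and 16.0 and 20.6 in the ΔN line. At both genes, all 4 libraries of the derived lines were below both parental libraries. Libraries of the lines do not overlap for 64.2% of all genes in the comparison of the WT line with parental ESCs and for 57% in that of the ΔN line, so such a separation is common here. Of the 9 genes, 7 and 6 were separated in this way, and 7 between the derived lines, where the share of all genes was 68.8%. The log2 fold change of *Bmpr1a* was -0.30 in the WT line (interval -0.54 to -0.06, adjusted p = 0.0658 from limma) and -0.21 in the ΔN line (interval -0.45 to 0.03, adjusted p = 0.212). For *Bmpr2* it was -0.39 (interval -0.71 to -0.08, adjusted p = 0.065 from limma) and -0.35 (interval -0.66 to -0.03, adjusted p = 0.116). For each gene, the difference of the WT line stayed uncalled under 17 of 18 other settings. With median-ratio scaling it was -0.21 for *Bmpr1a* (adjusted p = 0.174 from limma) and -0.31 for *Bmpr2* (adjusted p = 0.128). The exception was the fit without the second parental library, which left 1 library in that line (-0.39 for *Bmpr1a* and -0.41 for *Bmpr2*). Without the first parental library the differences were -0.21 and -0.37.

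*Smad1* and *Smad5* encode SMADs phosphorylated by the receptor, and *Smad5* alone of the pair was called. *Smad5* (chromosome 13, 56703010 to 56742377) had 45.0 and 43.5 CPM in parental ESCs, 33.2 and 36.5 in the WT line and 46.3 and 43.0 in the ΔN line. Both WT libraries were below the other 4, and the ΔN and parental libraries overlapped. The log2 fold change of the WT line was -0.34 against parental ESCs (interval -0.57 to -0.11, adjusted p = 0.0395 from limma) and -0.35 against the ΔN line (interval -0.58 to -0.12, adjusted p = 0.0407). These calls lay close to the threshold. The first was lost under 12 of 18 other settings. Among these were median-ratio scaling (-0.25, adjusted p = 0.105 from limma), quantile normalization (-0.27, adjusted p = 0.0889) and upper-quartile scaling (-0.31, adjusted p = 0.0507). The omission of the first or second WT library (-0.27 and -0.40) lost it as well. The second call was lost under 8 of 18, among them the omission of any 1 library of the 2 lines (-0.41 to -0.28).

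*Smad1* (chromosome 8, 79338395 to 79399518) had 16.7 and 15.3 CPM in parental ESCs, 18.8 and 18.8 in the WT line and 14.1 and 15.5 in the ΔN line. The WT libraries were the highest, and their difference to parental ESCs (log2 fold change 0.22, interval -0.05 to 0.50, adjusted p = 0.207 from limma) and to the ΔN line (0.33, interval 0.05 to 0.61, adjusted p = 0.0901) did not pass the threshold. The latter passed without either parental library (adjusted p = 0.0375 and 0.0367), which changes only the estimate of the spread. Per length of exon, the level of *Smad5* was above that of *Smad1* in every line, with mean levels of 5.97 and 2.55 CPM per kb of exon in parental ESCs, 4.70 and 3.00 in the WT line and 6.01 and 2.36 in the ΔN line.

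*Smad6* showed the largest difference among the 9 genes. It encodes an inhibitory SMAD that binds the receptors and competes for SMAD1, and it is itself a target of BMP signaling. *Smad6* (chromosome 9, 63953076 to 64022059) had 1.19 and 2.55 CPM in parental ESCs, 5.52 and 6.06 in the WT line and 1.00 and 1.27 in the ΔN line, from 23 and 47, 109 and 110, and 20 and 24 reads. Both WT libraries were above the other 4, whereas the parental and ΔN libraries overlapped. The mean was 3.10-fold higher in the WT line than in parental ESCs (log2 fold change 1.28, interval 0.77 to 1.80, adjusted p = 0.00529 from limma) and 5.10-fold higher than in the ΔN line (1.67, interval 1.15 to 2.19, adjusted p = 0.00133). Between the ΔN line and parental ESCs the log2 fold change was -0.39 (interval -0.90 to 0.13, adjusted p = 0.282). Parental ESCs were the most uneven at this gene. Without the second WT library the difference to parental ESCs was 1.23 (adjusted p = 0.055), and without the first parental library the ΔN line was below parental ESCs (-0.74, adjusted p = 0.0124). The difference between the derived lines was called under each of the 16 settings that tested this gene. The median log2 fold change of 74 tested genes within 5 Mb of *Smad6* was -0.089 in the WT line against parental ESCs. Of these 74 genes, 26 were called in that comparison, against 25% of all genes tested. Some fibroblast markers moved as well, although the cells were grown without feeders. The list summed to 22.8 to 23.9 CPM in the WT line, 44.2 to 57.2 in parental ESCs and 39.1 to 44.5 in the ΔN line. Most of the sum came from *Thy1*. *Thy1* and *Col1a1* were called lower in the WT line than in parental ESCs, and *Acta2* was not. In the ΔN line *Acta2* was called lower (-1.14, adjusted p = 0.00374 from limma), and *Thy1* and *Col1a1* were not. Of the 7 fibroblast markers, 4 were below the filter on low values and *Twist2* was at 0 in all libraries. Primitive endoderm markers, 7 in all of which 4 passed the filter, summed to 11.0 to 12.0 CPM in the WT line, against 6.95 to 9.44 in parental ESCs and 9.24 to 10.1 in the ΔN line, and *Gata6*, *Sox17* and *Foxa2* had means of 0.32 CPM or less in every line. The part of either list in the level of *Smad6* was not tested.

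**Figure D2:**
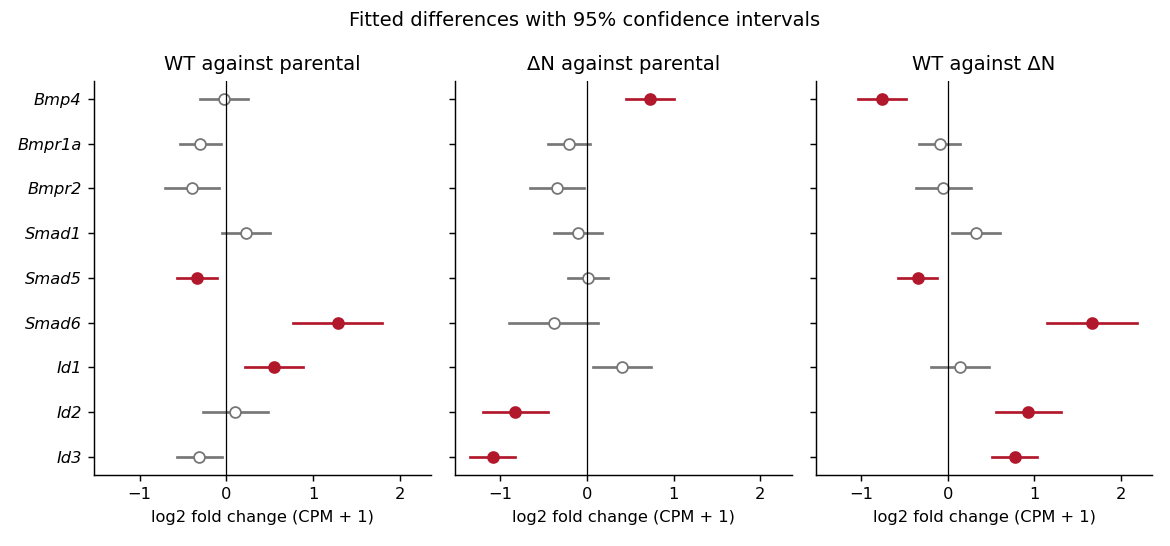
Points are fitted log2 fold changes of CPM + 1 (x axis) with 95% confidence intervals (lines) for the 9 genes (y axis) in 3 comparisons, and filled red points are genes with an adjusted p under 0.05. *Smad6* lay at 1.28 and 1.67 in the comparisons of the WT line, and *Id3* at -1.09 in the ΔN line against parental ESCs.

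*Id1*, *Id2* and *Id3* are commonly read as targets of one signal. *Id2* and *Id3* were called lower in the ΔN line than in both parental ESCs and the WT line, and *Id1* was not. *Id3* (chromosome 4, 136143497 to 136145755) had 29.9 and 27.3 CPM in parental ESCs, 22.2 and 23.4 in the WT line and 12.8 and 13.0 in the ΔN line. No 2 lines overlapped. The mean of the ΔN line was 2.21-fold lower than in parental ESCs (log2 fold change -1.09, interval -1.35 to -0.83, adjusted p = 0.0004 from limma), and that of the WT line was 1.76-fold higher than in the ΔN line (0.77, interval 0.51 to 1.03, adjusted p = 0.00197). Both calls were kept under all 18 other settings. The WT line differed from parental ESCs by -0.31 (interval -0.57 to -0.05, adjusted p = 0.0731 from limma). This difference stayed uncalled under 17 of 18 other settings. In the exception, the fit without the second parental library, it was -0.38. Without the first parental library it was -0.25.

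*Id2* (chromosome 12, 25093799 to 25097140) had 6.81 and 5.64 CPM in parental ESCs, 6.53 and 6.94 in the WT line and 2.71 and 3.43 in the ΔN line. Both ΔN libraries were below the other 4, and the WT and parental libraries overlapped. The mean of the ΔN line was 2.03-fold lower than in parental ESCs (log2 fold change -0.83, interval -1.20 to -0.45, adjusted p = 0.00841 from limma), and the mean of the WT line was 2.19-fold higher than that of the ΔN line (0.93, interval 0.56 to 1.31, adjusted p = 0.0049). For the WT line against parental ESCs the interval was -0.27 to 0.48 (adjusted p = 0.682). Without the first ΔN library the difference to parental ESCs was -0.70 (adjusted p = 0.0852), and without the second WT library that between the derived lines was 0.89 (adjusted p = 0.0614).

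*Id1* (chromosome 2, 152736251 to 152737410) had 16.6 and 13.6 CPM in parental ESCs, 20.1 and 25.1 in the WT line and 19.4 and 21.1 in the ΔN line. All 4 libraries of the derived lines were above both parental libraries, and the derived lines overlapped. The mean was 1.49-fold higher in the WT line than in parental ESCs (log2 fold change 0.55, interval 0.21 to 0.88, adjusted p = 0.0264 from limma) and 1.34-fold higher in the ΔN line (0.41, interval 0.07 to 0.74, adjusted p = 0.0854). The call in the WT line was lost under 4 of 18 other settings. These were the omission of its first (0.70) or second library (0.39), no filter (adjusted p = 0.076 from limma) and RPKM without conversion (adjusted p = 0.0895). In the ΔN line the difference passed the threshold under 3 of 18. These were the omission of the first parental library (0.54), median-ratio scaling (0.48, adjusted p = 0.0464) and quantile normalization. The derived lines differed from each other by 0.14 (interval -0.19 to 0.47, adjusted p = 0.535).

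Per length of exon, the order of the *Id* genes differed between the lines. In parental ESCs the level of *Id3* was 16.0 ± 1.00 CPM per kb of exon (SD, n = 2), that of *Id1* 13.0 ± 1.80 and that of *Id2* 2.55 ± 0.34. The WT line had 19.5 ± 3.05 for *Id1*, 12.7 ± 0.44 for *Id3* and 2.76 ± 0.12 for *Id2* (SD, n = 2), and the ΔN line had 17.5 ± 1.03, 7.22 ± 0.10 and 1.26 ± 0.21 (SD, n = 2). By this measure *Id3* was the highest of the 3 in parental ESCs and *Id1* in both derived lines. Neighbouring *Id* genes did not overlap within a line. The length is that of all annotated exons of a gene merged, 1160 bases for *Id1* and 1791 for *Id3*. The order in the WT line depends on it. In CPM, without the length, *Id1* (20.1 and 25.1) and *Id3* (22.2 and 23.4) overlapped in that line. The ratio of *Id1* to *Id3* per length was 0.86 and 0.77 in the parental libraries, 1.39 and 1.66 in the WT libraries and 2.34 and 2.50 in the ΔN libraries. It separated all 3 lines. The summed level of the 3 genes was 33.8 and 29.3 CPM per kb in parental ESCs, 32.4 and 37.5 in the WT line and 25.0 and 26.9 in the ΔN line, so that the sum of the ΔN line lay below the other 4 libraries and the WT and parental sums overlapped.

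**Figure D3:**
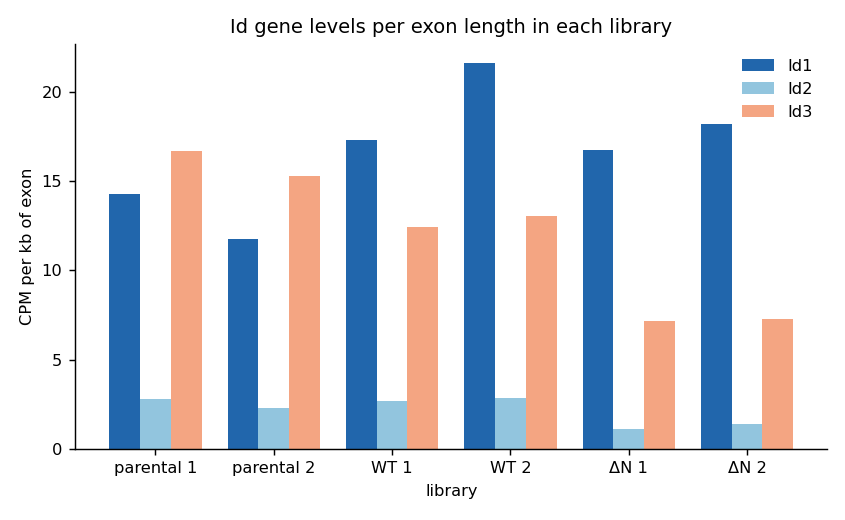
Bars give the level of *Id1*, *Id2* and *Id3* in CPM per kb of exon (y axis from 0) in each of the 6 libraries (x axis). *Id3* exceeded *Id1* in both parental libraries, and *Id1* exceeded *Id3* in all 4 libraries of the derived lines, with a ratio of 2.34 and 2.50 in the ΔN line.

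The genes whose log2 levels followed each *Id* gene most closely over the 6 libraries, among tested genes with a mean of at least 10 CPM, were different for the 3 genes. For *Id1* they were *Tmem208*, *Minos1* and *Cops9* (Pearson r from 0.991 to 0.993, 6 libraries), for *Id2* *Zfp951*, *Cnot6l* and *Fbxo15* (r from 0.987 to 0.993) and for *Id3* *Dusp14*, *Flcn* and *Aim2* (r from 0.994 to 0.997). With 6 libraries in 3 lines and 8559 genes compared for *Id1*, correlations of this size are a description only.

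Across all 9 genes, the order of mean levels per length of exon was led by *Bmp4* in parental ESCs (17.4 CPM per kb) and in the ΔN line (29.2) and by *Id1* in the WT line (19.5), where *Id1* and *Bmp4* (17.1) overlapped. *Smad6* was the lowest in parental ESCs (0.58) and in the ΔN line (0.35), and *Bmpr2* the lowest in the WT line (0.97, against 1.81 for *Smad6*). Neighbours in these orders overlapped for *Id2* and *Smad1* in parental ESCs and for *Id2* and *Bmpr2* in the ΔN line, besides the pair in the WT line.

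The other genes of the pathway were read from a list of 68 genes in the table, of which 42 passed the filter on low values. Relative to parental ESCs, 4 were higher and 8 lower in the WT line, and 3 were higher and 5 lower in the ΔN line. Between the derived lines, 3 were higher in the WT line and 3 in the ΔN line. Over all genes, 8.71% were called higher and 16.3% lower in the WT line, 6.25% and 13.6% in the ΔN line, and 10.9% and 9.44% in the WT line relative to the ΔN line. The median log2 fold change of the 42 genes was -0.039, -0.066 and 0.0034 in the 3 comparisons.

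Among 12 SMAD genes and intracellular regulators, *Smad7*, *Smad9* and *Zfp423* changed most. *Smad7*, the gene of the other inhibitory SMAD, had 67.5 and 72.3 CPM in parental ESCs, 76.9 and 81.5 in the WT line and 136.9 and 123.0 in the ΔN line. It was higher in the ΔN line than in parental ESCs (log2 fold change 0.88, adjusted p = 0.000408 from limma) and than in the WT line (WT over ΔN -0.71, adjusted p = 0.00114), both under all 18 other settings. The inhibitory SMAD genes thus differed in line: *Smad6* was highest in the WT line and *Smad7* in the ΔN line. *Smad9*, which encodes the remaining BMP-regulated SMAD, had 1.60 and 1.57 CPM in parental ESCs, 1.21 and 0.44 in the WT line and 0.10 and 0.16 in the ΔN line, the last from 2 and 3 reads. It fell in the ΔN line (-1.20, adjusted p = 0.00612), a call lost without the first ΔN library (-1.16, adjusted p = 0.0609). *Zfp423*, a zinc finger protein that binds BMP-activated SMADs, had 20.2 and 15.3 CPM in parental ESCs, 39.4 and 42.8 in the WT line and 56.5 and 49.1 in the ΔN line. It rose in both derived lines (1.18, adjusted p = 0.00116, and 1.53, adjusted p = 0.000187), and both calls were lost in RPKM without conversion (0.70, adjusted p = 0.104, and 0.96, adjusted p = 0.066).

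Of 10 receptor and co-receptor genes tested, *Acvrl1*, *Bmpr1b* and *Rgma* were called with a fold change above the limit of 0.58 used by the study. Against parental ESCs, smaller changes were called for *Acvr2a* in the WT line (-0.46, adjusted p = 0.0478 from limma) and *Neo1* in the ΔN line (-0.40, adjusted p = 0.013). *Acvrl1* (ALK1, a type I receptor best known from endothelium) had 3.46 and 5.26 CPM in parental ESCs, 2.33 and 2.04 in the WT line and 7.18 and 6.55 in the ΔN line. The lines did not overlap at *Acvrl1*, which was lower in the WT line than in parental ESCs (-0.73, adjusted p = 0.0229 from limma) and than in the ΔN line (-1.30, adjusted p = 0.00181). The call against parental ESCs was lost without the second parental library (-0.49, adjusted p = 0.0679) or either WT library (adjusted p = 0.0992 and 0.144). *Rgma*, a BMP co-receptor, had 0.57 and 0.81 CPM in parental ESCs, 1.37 and 1.82 in the WT line and 0.35 and 0.16 in the ΔN line, from 3 to 33 reads. Its levels in the WT line were above those of parental ESCs (0.61, adjusted p = 0.0463) and of the ΔN line (1.05, adjusted p = 0.00596). Calls of *Rgma* were lost without the second WT library (0.49, adjusted p = 0.25, and 0.92, adjusted p = 0.0706) and, between the derived lines, without the second ΔN library (0.93, adjusted p = 0.0735). Against parental ESCs they were also lost without the first parental, the first WT or either ΔN library (adjusted p 0.0707 to 0.112).
*Bmpr1b*, a type I receptor gene at 1.81 and 1.52 CPM in parental ESCs, was at 0.96 and 0.28 in the WT line and at 0.60 and 0.32 in the ΔN line. It fell in both (-0.75, adjusted p = 0.0444, and -0.87, adjusted p = 0.0294 from limma). The fall in the WT line was lost without the first parental, the second WT or either ΔN library (adjusted p 0.0658 to 0.297), and that in the ΔN line without either of its libraries (adjusted p = 0.0899 and 0.185).

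**Figure D4:**
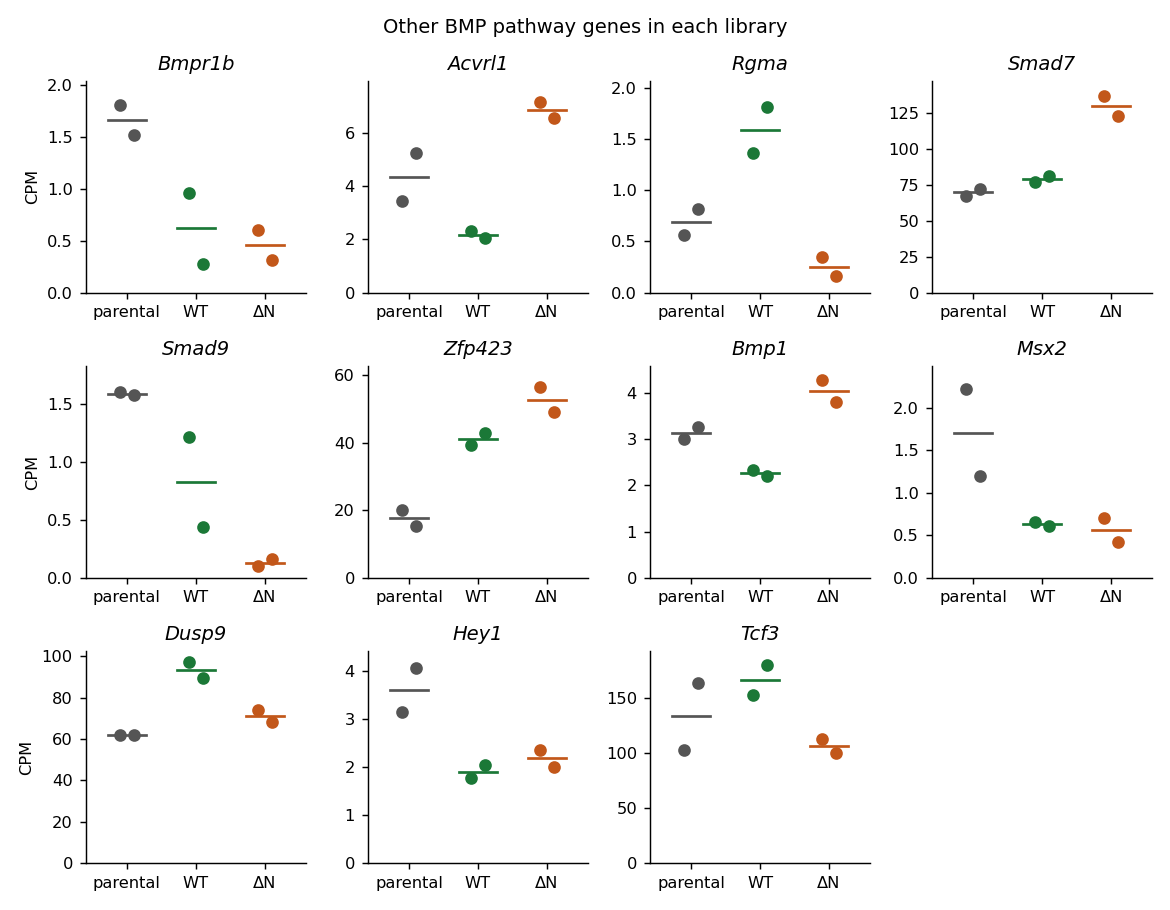
Each point is the level in 1 library in CPM (y axis from 0, scaled per gene) of 11 other pathway genes in parental ESCs, the WT line and the ΔN line, and the bar is the mean of the 2 libraries. *Smad7* stood at 136.9 and 123.0 CPM in the ΔN line against 67.5 to 81.5 in the other 4 libraries, and *Zfp423* was above 39 CPM in all 4 libraries of the derived lines.

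Of 7 secreted antagonists and modulators tested, 0 were called against parental ESCs in either derived line with limma, 0 at an unadjusted p under 0.05, and 0 with voom on recovered reads. *Bmp1*, a protease that releases BMPs from the antagonist chordin, was lower in the WT line than in the ΔN line (2.33 and 2.20 against 4.27 and 3.80 CPM, log2 fold change -0.62, adjusted p = 0.0244), a call lost without any 1 of these 4 libraries (adjusted p 0.104 to 0.152). The antagonist gene *Nog* had a mean of 0.08 CPM or less in each line. Among 6 other target genes tested, *Dusp9*, a phosphatase that BMP4 induces in mouse ESCs, rose in the WT line (61.8 and 62.2 CPM in parental ESCs, 97.2 and 89.6 in the WT line, 0.58, adjusted p = 0.00329) and had 74.0 and 68.1 CPM in the ΔN line. The call of *Dusp9* was lost without the first WT library (0.52, adjusted p = 0.0578). The transcription factor genes *Msx2* and *Hey1* were lower. *Msx2* had 2.22 and 1.19 CPM in parental ESCs and 0.42 to 0.70 in the derived lines (-0.70, adjusted p = 0.0448, in the WT line and -0.77, adjusted p = 0.0373, in the ΔN line). Calls of *Msx2* were lost without any 1 of the 6 libraries except the second parental one (adjusted p 0.0684 to 0.214). *Hey1* had 3.15 and 4.07 CPM in parental ESCs, 1.77 and 2.04 in the WT line (-0.66, adjusted p = 0.0263) and 2.36 and 2.01 in the ΔN line, and its call was lost without the second parental (-0.52, adjusted p = 0.0729) or either WT library (adjusted p = 0.162 and 0.103).

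The ID proteins act by binding E proteins, and of the 3 E protein genes *Tcf3* was called. *Tcf3* had 102.9 and 164.2 CPM in parental ESCs, 153.0 and 180.6 in the WT line and 112.9 and 100.0 in the ΔN line. The WT libraries were above both ΔN libraries (0.64, adjusted p = 0.0374 from limma), and parental ESCs spanned the range between them. This call was lost without any 1 of the 4 libraries compared (adjusted p 0.0986 to 0.242).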

How the data were processed

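RNA had been sequenced from 2 libraries for each of 3 lines. Per the study's methods the authors removed ribosomal reads, trimmed, mapped to mm10 with STAR and counted exon coverage with their own pipeline, and they deposited RPKM values. The submitters' processing notes also name Bowtie2 2.3.4.3 and Subread 1.4.6-p4. Tables of the authors' own comparisons, which hold mean reads, fold changes and P values from DESeq2, were not used. ChIP and input samples (6) were not analysed here.

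Of 50978 genes, 47940 matched GENCODE vM21, while 176 with repeated or date-like names, 2796 without a match and 66 with several matches were left out. Multiplied by the gene span, RPKM came within 0.1 of whole reads for 98.1 to 98.4% of values up to 20 reads, against 15.1 to 34.6% with exon length. Values were therefore turned into CPM with the span and one constant, where 1 read was 0.0502 to 0.0551 CPM. Counts carry counting error besides the spread between libraries. Whether the libraries mark strand was not checked here. *Bmp4* shares 89 exon bases with *Gm15217* on the opposite strand (0.42 CPM at most).

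Testing used limma 3.58.1 (R 4.3.3) on log2(CPM + 1) of genes that exceeded 1 CPM in 2 or more libraries, with a mean-variance trend, all 6 libraries in one fit, two-sided, and Benjamini-Hochberg adjustment. The script was tested on simulated data. Named were the 9 genes, pathway genes called with an absolute log2 fold change above 0.58, the 3 genes most like each *Id* gene, and *Pramel7*. *Gdf3*, *Acvr2a*, *Neo1*, *Actb*, *Ppia*, *Gapdh*, *Eomes*, *Thy1*, *Krt7*, *T*, *Mixl1*, *Nog* and other markers were named after their values were seen. The 9 genes and the lists were chosen with earlier results of these data known. As alternatives, the pseudocount was set to 0.1 or 5, the filter to 10 CPM or none, the replicate number was a block, the compared lines were fitted alone, and others were 3 scalings, no trend, voom on recovered reads, RPKM without conversion (pseudocount 0.01, filter 0.02), the fold limit and leaving out each library. A block with crossed numbers was added after seeing the data. Other tools were python 3.11.15, numpy 2.4.6, pandas 2.3.3 and matplotlib 3.10.9.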

Additional observations from a re-analysis of the deposited data

Results flagged for a closer look

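In the contrast of the WT line against the ΔN line in the same fit, 20.4% of all genes tested were called. By that contrast, the derived lines differed from each other at 5 of the 9 genes. The difference of their log2 fold changes over parental ESCs was 1.67 for *Smad6*, 0.93 for *Id2* and 0.77 for *Id3*, all higher in the WT line, and -0.75 for *Bmp4* and -0.35 for *Smad5*, both higher in the ΔN line (adjusted p from limma 0.00133, 0.0049, 0.00197, 0.00319 and 0.0407). With 2 libraries per line, no single library could be tested for standing apart from its line.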

How the results depend on the processing

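Of 477 results for the 9 genes under 18 other settings, 428 kept their direction and side of the threshold, 30 lost and 10 gained a call, and 9 turned direction. Of 11 calls, 3 were kept under every setting that tested the gene (*Id3* in both comparisons of the ΔN line and *Smad6* between the derived lines). A filter of 10 CPM gave no value for *Smad6* and *Id2*, and RPKM without conversion none for *Smad6*. The directions that turned were of differences near 0. These were *Bmp4* in the WT line (0.055 with median-ratio scaling, 0.047 with quantile normalization, and 0.013 without the second parental and 0.092 without the first WT library, in a range of -0.16 to 0.092 without 1 library), *Id2* in the WT line (-0.015 without the second parental library, range -0.015 to 0.22), *Smad5* in the ΔN line (-0.013 without the second parental and -0.042 without the first ΔN library, range -0.042 to 0.063), *Bmpr2* between the derived lines (0.13 without the second ΔN library, range -0.22 to 0.13) and *Id1* between them (-0.014 without the second WT library, range -0.014 to 0.29).

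Genes called against parental ESCs numbered 3234 in the WT line and 2566 in the ΔN line, and 2628 between the derived lines. They were 1896, 1695 and 1427 with no filter, 929, 895 and 922 in RPKM, 1612, 1456 and 1465 with the fold limit added, and 1763, 1590 and 1605 with that limit and an unadjusted p. Fits of the compared lines alone gave 1700 in the ΔN line and 4647 between the derived lines, and leaving out 1 library gave 706 to 4374, 838 to 4282 and 712 to 4648. Of the 9 genes, 3, 3 and 5 were called. The WT line had 1 with no filter, 0 in RPKM (where *Smad6* was not tested), 1 under either rule with the fold limit and 0 to 6 without 1 library. The ΔN line had 1 to 5 without 1 library, and the comparison of the derived lines had 3 with a filter of 10 CPM, 3 in RPKM and 3 to 6 without 1 library. The cause was not tested. Median-ratio scaling turned the split of calls from 1125 higher and 2109 lower to 1673 and 1495 in the WT line and from 807 and 1759 to 1122 and 1368 in the ΔN line. Of 5 housekeeping genes listed, 4 passed the filter. In the WT line against parental ESCs, *Actb* was called higher (0.45, adjusted p = 0.016 from limma) and *Ppia* lower (-0.32, adjusted p = 0.0477), and 2 were not called. In the ΔN line *Gapdh* was called higher (0.55, adjusted p = 0.00352), and 3 were not called.

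Replicate numbers did not pair the libraries: the differences between libraries 1 and 2 correlated across genes at 0.21 between parental ESCs and the WT line, -0.25 between parental ESCs and the ΔN line and -0.10 between the derived lines. With the number as a block, 2729, 2112 and 2181 genes were called and 2, 3 and 4 of the 9, and both calls of *Smad5* were lost. With the numbers of the ΔN line crossed in the block, 4435, 3417 and 3642 genes were called and 5, 3 and 5 of the 9. Depth limits *Smad6*, with 20 to 110 reads per library, more than the other 8 genes.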

Other observations

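Of 7 primitive endoderm markers, 4 passed the filter on low values. *Gata4* rose in both derived lines (log2 fold change 0.69 and 0.78, adjusted p = 0.0299 and 0.0216 from limma), *Sox7* rose in the WT line (0.58, adjusted p = 0.0407) and *Pdgfra* fell in both (-0.60 and -0.66, adjusted p = 0.0402 and 0.0319). Of all genes tested, 8.71% were called higher and 16.3% lower in the WT line than in parental ESCs. Of 10 pluripotency markers, 1 was higher and 4 were lower in that comparison. *Utf1* rose (0.73, adjusted p = 0.0155) and *Klf4*, *Zfp42*, *Nanog* and *Tdgf1* fell, *Klf4* by 0.66 (adjusted p = 0.0118) and *Nanog* by 0.36 (adjusted p = 0.0178) on the log2 scale, while *Pou5f1* was at 0.25 (adjusted p = 0.0624). In the ΔN line, where 6.25% of all genes were called higher and 13.6% lower, *Dppa5a* rose and 9 were not called. Between the derived lines, 5 of the 10 were lower in the WT line and 0 higher, against 9.44% and 10.9% of all genes.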
